A study of Mus musculus with 16 samples.

Results

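The cytochrome P450 enzymes of families CYP1, CYP2 and CYP3 were examined in mouse liver. Members were the protein-coding genes whose symbol is Cyp followed by 1, 2 or 3, a subfamily letter and a number, with Cyp2c70 left out. They numbered 53 of the 25803 genes in the count tables, and 42 of them passed the filter on low counts, among 14488 genes tested. The livers came from male mice fed a high-fat diet (HFD) for 12 weeks, and each group had 4 libraries of bulk polyadenylated RNA. In fasted control mice (S40 to S43) and fasted Cpt1a LKO mice (S44 to S47) the liver was taken after a 16 h fast. In refed control mice (S48 to S51) and refed LKO mice (S52 to S55) a 16 h fast was followed by 6 h of refeeding. LKO denotes loss of Cpt1a, the outer-membrane carnitine palmitoyltransferase of mitochondrial fatty acid oxidation, in the liver. The labels give neither the deleter nor the allele, so which liver cells lost the gene is not stated in the sources used here, and the controls are named only as control or WT.

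CYP1 to CYP3 enzymes are heme proteins of the endoplasmic reticulum, mostly in hepatocytes, that oxidise drugs, plant compounds, steroids and fatty acids with electrons from the reductase POR and from cytochrome b5. Their genes lie in tandem clusters of close copies. Many respond to nuclear receptors such as CAR (Nr1i3) and PXR (Nr1i2) or to the aryl hydrocarbon receptor AHR, and several mouse genes are set by the sex-specific pattern of growth hormone.

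Total counts per library ran from 14721601 to 24618230. Cpt1a itself averaged 487 ± 83.2 CPM (counts per 1000000 of the scaled library total; SD, n = 4) in fasted controls and 101 ± 17.3 in fasted LKO, and 457 ± 137 against 54.2 ± 16.6 CPM after refeeding. The 4 LKO libraries lay below the 4 controls in each state, the most extreme order possible (exact permutation test, two-sided, p = 0.0286 in each state, the smallest that 4 against 4 allows). The 8 hepatocyte markers (among them Alb, Apoa1 and Apob) summed to 70324 to 78079 CPM in fasted controls and 59308 to 67756 CPM in fasted LKO, so those ranges did not overlap. After refeeding they summed to 68168 to 88693 CPM in controls and 60564 to 74309 CPM in LKO. Their part in the P450 results was not tested, and in bulk liver fewer cells of a type and less RNA per cell cannot be told apart.

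A set of P450 transcripts was lower in LKO liver, with 0 members called higher by edgeR in either feeding state with all 16 libraries. DESeq2 called Cyp2s1 higher in the fasted state and Cyp2u1 in the refed state, and edgeR called Cyp2s1 higher in the fasted state without S45 (adjusted p = 0.0376) or without S47 (0.0383), against 0.0700 with all libraries. The fasted Cyp2s1 estimate rested largely on S44, at 5.99 CPM against 0.622, 1.18 and 0.559 CPM in S45 to S47. Fasted controls held 0.234 to 0.794 CPM of it. In the fasted state 13 of the 42 tested members were called lower and 0 higher (edgeR quasi-likelihood test, Benjamini-Hochberg adjusted p under 0.05 over all genes), which is 31.0% of them. Over all genes tested, 12.2% were called in this comparison, 6.48% lower and 5.75% higher. The median log2 fold change of the members was −0.42, against 0.02 over all genes, and 38 of 42 estimates were below 0. In the refed state 7 members were called, again all lower, which is 16.7% of those tested. Here the share over all genes was 3.63%, with 1.35% called lower and 2.28% higher. The refed median was −0.29, against −0.01 over all genes, with 31 of 42 estimates below 0. The calls covered 15 members in either state, of which 5 were called in both, 8 in the fasted and 2 in the refed state. A call in 1 state and not in the other is not a difference between states: the test of that difference called 1 member, Cyp2u1. The number of fasted calls ranged from 8 without S44 to 17 without S47, of which 1 was the higher call of Cyp2s1. The number of refed calls ranged from 2 without S54 or S55 to 9 without S52, and was 3 without S48 or S50 and 4 without S53.

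**Figure D1:**
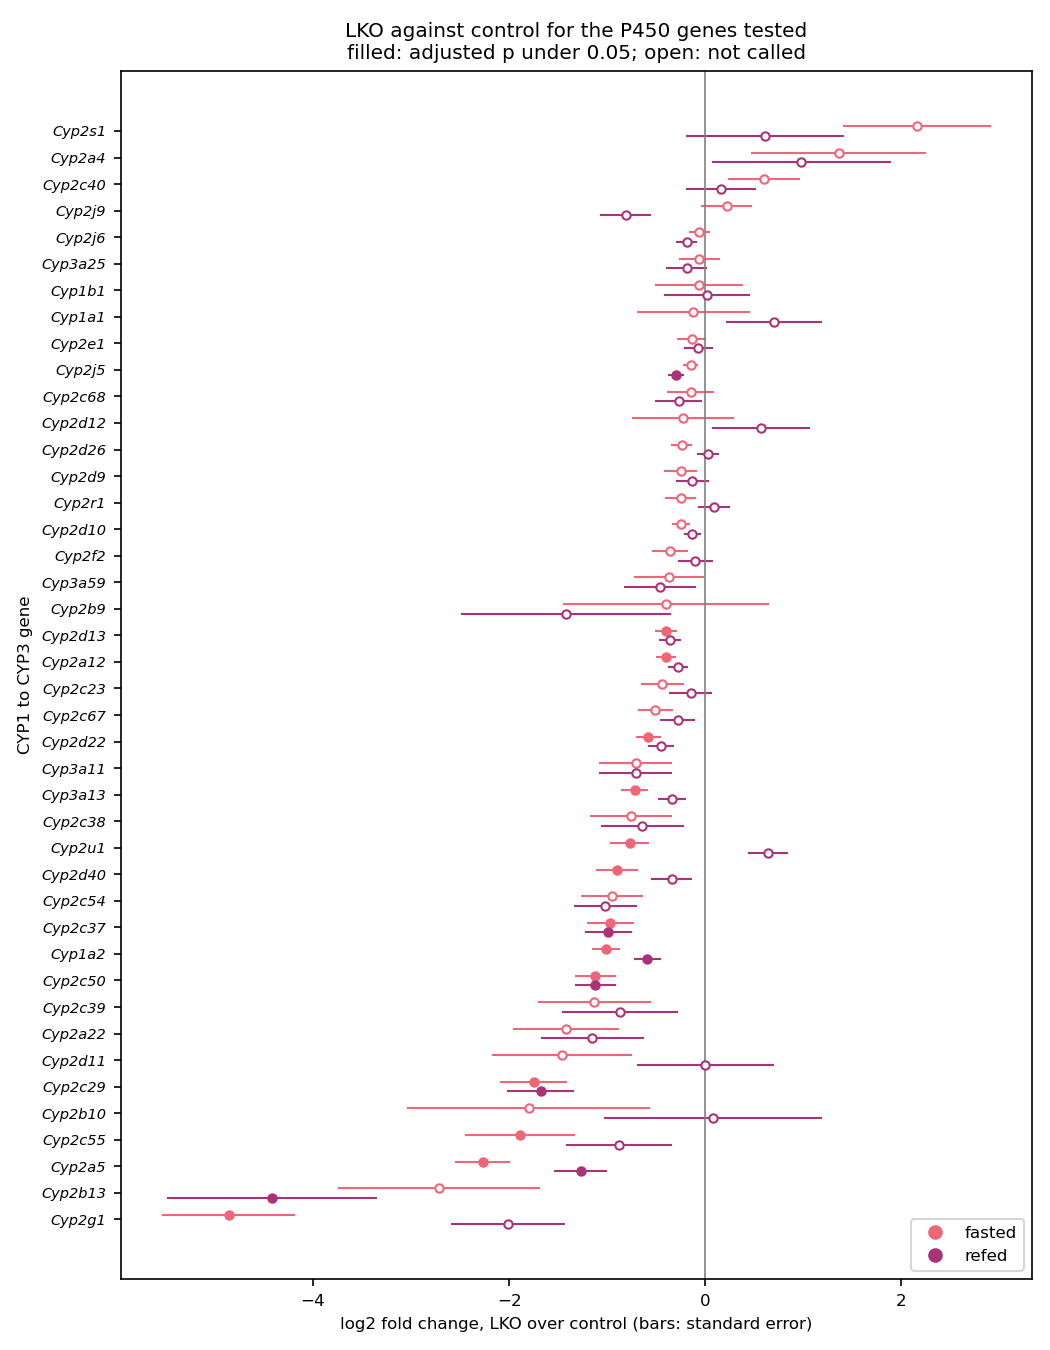
Log2 fold change of LKO over control (horizontal axis, bars show the standard error) for each of the 42 tested P450 genes (vertical axis) in the fasted and the refed state, with filled points for adjusted p under 0.05. All 13 fasted and all 7 refed filled points lie left of 0.

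Cyp2e1, the ethanol- and paracetamol-oxidising enzyme, made up 50% of the counts of the 53 members and so weighs on their sum. The members took 2.49 ± 0.174% of all counts in fasted controls and 2.07 ± 0.315% in fasted LKO, and 2.42 ± 0.131% and 2.09 ± 0.131% after refeeding (SD, n = 4). The fasted groups overlapped in the summed level of all members, at 25072 CPM in LKO S45 against 23021 CPM in control S40, while every refed LKO library (at most 22363 CPM) lay below every refed control (at least 23370.2 CPM). Leaving Cyp2e1 out, the members summed to 13039 ± 887 CPM in fasted controls against 8947 ± 939 in fasted LKO. The refed sums without Cyp2e1 were 13466 ± 428 CPM in controls and 9957 ± 1441 CPM in LKO. In each state the highest LKO library of this sum (9912 and 11560.1 CPM) lay below the lowest control (11769 and 12959.5 CPM). As a level per length over all 16 libraries, Cyp2e1 stood at 5289 CPM per kilobase, followed by Cyp2d26 at 846, Cyp2d9 at 726, Cyp2d10 at 518, Cyp2f2 at 413 and Cyp2a5 at 335 CPM per kilobase. The other members fell off to 0.00301 CPM per kilobase for Cyp3a41a.

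Cyp2a5, the coumarin- and nicotine-oxidising enzyme, showed the steepest fall among the called members above 5 CPM in the fasted state. Its gene (ENSMUSG00000005547) lies at chr7:26534730-26542973 on the plus strand, in the coordinates of the deposited tables, for which the submitters' notes name mm39. It read 1229.6, 1125, 916 and 766 CPM in the fasted controls S40 to S43 and 163, 321, 120.2 and 235 CPM in fasted LKO, S44 to S47 in that order. After refeeding it read 922, 1339.6, 1014 and 1119 CPM in controls (S48 to S51) and 673, 418, 423 and 313 CPM in LKO (S52 to S55). Every LKO library lay below every control of its state, and the refed LKO libraries lay mostly above the fasted ones, with S55 just under S45. The LKO level was 20.8% of control when fasted (log2 fold change −2.27, SE 0.28, edgeR adjusted p = 2.38e-04) and 41.5% when refed (−1.27, SE 0.27, adjusted p = 0.0173). The refed call was lost without S53 (adjusted p = 0.0518), S54 (0.0519) or S55 (0.0649). Cyp2a4, the female-biased steroid-hydroxylating copy of Cyp2a5, is 98.5% identical to it over the coding sequence, so reads can be split between them. Cyp2a4 was far less abundant, at 13.0 CPM on average. Its own estimates were above 0, opposite to Cyp2a5, and were not called (1.36 fasted and 0.98 refed, edgeR adjusted p = 0.355 and 0.624). The sum of both copies was lower in LKO (−2.13 and −1.24, adjusted p = 3.52e-04 and 0.0231).

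Cyp1a2, the caffeine-metabolising AHR target of hepatocytes around the central vein, was the member called in 4 of the 5 comparisons (ENSMUSG00000032310, chr9:57584220-57590986, minus strand). Its fasted values were 353, 393, 313 and 292 CPM in controls and 195, 155, 155 and 166 CPM in LKO. Its refed values were 556, 391, 482 and 418 CPM in controls and 364, 255, 275 and 334 CPM in LKO. Both genotype groups were separate in each state, and both were higher after refeeding than after fasting. LKO stood at 49.7% of control in the fasted state (−1.01, SE 0.14, edgeR adjusted p = 3.9e-04) and at 66.5% in the refed state (−0.59, SE 0.14, adjusted p = 0.0275). The refed call was lost without any 1 of S48 (0.0937), S50 (0.0645), S53 (0.0847), S54 (0.0788) and S55 (0.0522), and with only the refed groups in the fit (0.0538). Its neighbour Cyp1a1, the inducible AHR target, averaged 0.607 CPM and was not called (−0.12 and 0.70, adjusted p = 0.922 and 0.477).

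Cyp2c29, Cyp2c37 and Cyp2c50 are epoxygenases and hydroxylases of arachidonic acid from the Cyp2c cluster on chromosome 19, and all of them were called lower in both states. Their genes are ENSMUSG00000003053 (chr19:39257849-39319157), ENSMUSG00000042248 (chr19:39980868-40000687) and ENSMUSG00000054827 (chr19:40078132-40102394), all on the plus strand. Cyp2c29 read 579, 752, 943 and 709 CPM in fasted controls and 162, 355, 157 and 215 CPM in fasted LKO. In refed livers it read 1229, 1416, 844 and 655 CPM in controls and 564, 318, 204 and 208 CPM in LKO. The LKO libraries were below all controls of their state, S45 and S52 being the highest of them. LKO kept 29.8% of the control level when fasted (−1.75, SE 0.34, edgeR adjusted p = 0.00365) and 31.2% when refed (−1.68, SE 0.34, adjusted p = 0.0136).

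Cyp2c50 stood at 528, 753, 736 and 641 CPM in fasted controls against 221, 424, 260.1 and 318 CPM in fasted LKO. Refed controls held 907, 953, 829 and 721 CPM of it and refed LKO 490.3, 481, 299.7 and 296 CPM. The groups were again separate in each state, and the log2 fold change was −1.12 in both (SE 0.21, edgeR adjusted p = 0.00265 fasted and 0.00721 refed). Cyp2c29 and Cyp2c50 kept their calls in both states in every alternative that tested them singly.

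Cyp2c37 stood at 217, 360.3, 334 and 271 CPM in fasted controls and 130.2, 158, 152 and 166 CPM in fasted LKO. In the refed state the controls held 292, 478, 326 and 247 CPM and the LKO libraries 231, 216, 110.1 and 121 CPM. The groups did not overlap, although S52 at 231 CPM came close to S51 at 247 CPM. The change was −0.97 in the fasted state (SE 0.24, edgeR adjusted p = 0.0166) and −0.99 in the refed state (SE 0.24, adjusted p = 0.0342). The fasted call was lost without S41 (0.0502) or S44 (0.0554). The refed call was lost without S48 (0.0617), S49 (0.0910), S50 (0.0650), S54 (0.0914) or S55 (0.106), and with only the refed groups in the fit (0.0813). Cyp2c37 and Cyp2c50 share 96.1% of their coding bases and Cyp2c54 joins them at 95.2% with Cyp2c50, so the division of reads among these copies is uncertain. Cyp2c54 alone was not called (−0.95 and −1.02, adjusted p = 0.0656 and 0.0926), whereas the 3 copies summed were called lower in both states (−1.05 and −1.07, adjusted p = 0.00418 and 0.0111).

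**Figure D2:**
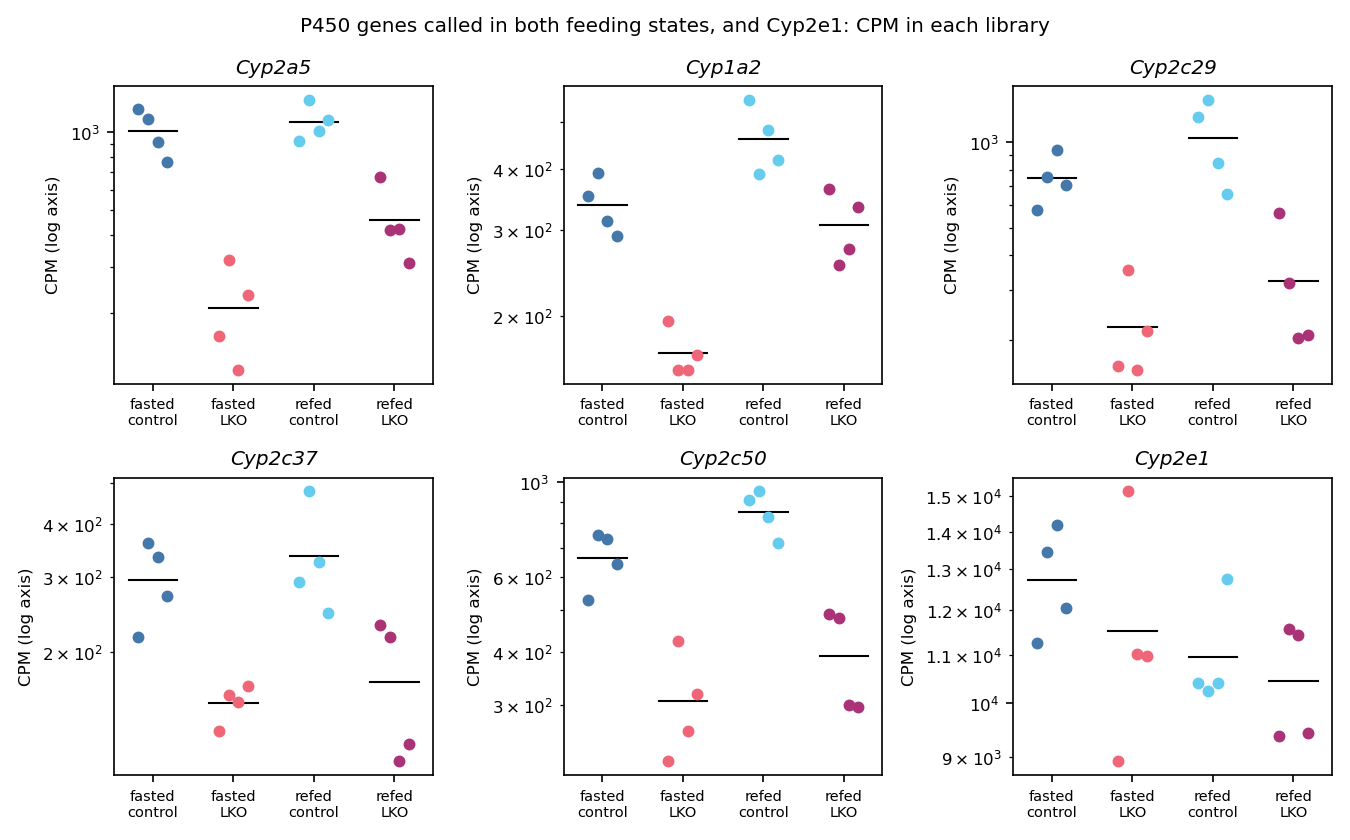
CPM on a log axis in each of the 16 libraries, by group (points; black lines mark group means), for the 5 P450 genes called in both states and for Cyp2e1. For the 5 called genes every LKO point lies below every control point of the same feeding state, while the Cyp2e1 groups overlap.

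The bases before the start of these 5 genes are shown because the genes were called lower in both states. They allow a comparison of the stretch next to the start only. Each line is the 250 bases before the RefSeq transcription start, 5′ to 3′ on the gene's strand, in build GRCm38.p6, while the count tables use the coordinates of another build. Capitals mark matches, on either strand, to 6 motifs that were searched by their letters: TNGCGTG (AHR core), AGGTCA (nuclear receptor half-site), CAAAGTCCA (HNF4), TTCNNNGAA (STAT5), TTGCNNAA (C/EBP) and GTTAAT and ATTAAC with any 1 base between them (HNF1). The windows are chr9:57683656-57683905 (minus strand) for Cyp1a2, chr7:26835089-26835338 (plus) for Cyp2a5, and on the plus strand chr19:39286835-39287084 for Cyp2c29, chr19:39992174-39992423 for Cyp2c37 and chr19:40089429-40089678 for Cyp2c50.
Cyp1a2: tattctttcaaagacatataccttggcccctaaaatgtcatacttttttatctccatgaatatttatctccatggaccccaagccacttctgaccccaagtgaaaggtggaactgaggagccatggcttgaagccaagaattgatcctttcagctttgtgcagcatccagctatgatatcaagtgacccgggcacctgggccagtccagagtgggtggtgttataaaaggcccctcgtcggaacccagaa
Cyp2a5: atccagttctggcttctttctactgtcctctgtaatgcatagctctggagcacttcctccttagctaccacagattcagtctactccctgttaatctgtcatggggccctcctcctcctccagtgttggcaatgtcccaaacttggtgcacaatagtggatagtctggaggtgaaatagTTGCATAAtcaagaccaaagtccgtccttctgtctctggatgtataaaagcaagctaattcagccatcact
Cyp2c29: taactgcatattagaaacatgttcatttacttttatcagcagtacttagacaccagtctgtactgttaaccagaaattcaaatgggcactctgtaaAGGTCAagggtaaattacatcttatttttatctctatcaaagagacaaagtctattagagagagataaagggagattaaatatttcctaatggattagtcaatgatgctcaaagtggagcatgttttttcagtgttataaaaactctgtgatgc
Cyp2c37: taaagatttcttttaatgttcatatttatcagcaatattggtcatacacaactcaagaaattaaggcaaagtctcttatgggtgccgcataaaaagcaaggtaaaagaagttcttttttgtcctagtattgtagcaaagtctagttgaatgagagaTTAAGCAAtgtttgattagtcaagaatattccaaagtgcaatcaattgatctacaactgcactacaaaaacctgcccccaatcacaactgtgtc
Cyp2c50: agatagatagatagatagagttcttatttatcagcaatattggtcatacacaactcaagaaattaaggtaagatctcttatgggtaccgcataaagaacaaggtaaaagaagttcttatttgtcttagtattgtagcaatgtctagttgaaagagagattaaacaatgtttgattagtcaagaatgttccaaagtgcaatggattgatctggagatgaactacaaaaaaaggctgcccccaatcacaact

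Cyp2a5 and Cyp2c37 each held 1 C/EBP match and Cyp2c29 held 1 nuclear receptor half-site, whereas none of the searched letters was found in these windows of Cyp1a2 and Cyp2c50. The Cyp2c37 and Cyp2c50 windows were 87.8% identical over 245 aligned bases, so the copies are alike before the start as well as in the coding sequence. The other pairs shared between 56.4% and 66.7% of the aligned bases. RefSeq promoters were matched for 45 of the 53 members, giving 47 windows. The HNF4 letters were present in 8 of these windows (17.0%), all of them Cyp2c or Cyp3a genes and several of them close copies of each other, against 0.384% of 32851 promoters of the same length. Of these genes, Cyp2c65, Cyp2c69, Cyp3a16 and Cyp3a41a did not pass the filter on low counts. The others (Cyp2c40, Cyp2c67, Cyp2c68 and Cyp3a11) were not called in any comparison. C/EBP letters were present in 13 windows (27.7%, against 9.56% of all promoters) and the half-site in 14 (29.8%, against 14.0%). These sets hold close copies too, such as Cyp2a4 with Cyp2a5 and Cyp3a25 with Cyp3a59. The AHR core and the STAT5 letters were each in 1 window (2.13%, against 4.1% and 7.02%), and the HNF1 letters in 0 (against 0.00913%). A match is a description of letters, and neighbouring matches may overlap. Bases farther from the start were not searched, so the absence of a match here says nothing about elements that lie there.

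Among the Cyp2c genes of chromosome 19 the estimates were mostly below 0. The counts and sums here include Cyp2c23 (chr19:43993461-44017647), which lies apart from the other members. Of 13 Cyp2c members, 11 were tested, and 10 of these had an estimate below 0 in each state, with 4 called lower in the fasted state and 3 in the refed state. Over all genes tested, 6.48% were called lower in the fasted and 1.35% in the refed state. The calls of the close copies Cyp2c37 and Cyp2c50 are not independent where reads are split between them. The summed Cyp2c level averaged 2381 ± 346 CPM in fasted controls and 1135 ± 234 in fasted LKO, and 3033 ± 604 against 1467 ± 354 CPM after refeeding. In each state the highest LKO sum (1422 and 1772 CPM) was below the lowest control sum (1993 and 2344 CPM). The fourth fasted call was the rare Cyp2c55, with 127 counts over the 4 fasted controls and 35 over the 4 fasted LKO libraries (−1.89, SE 0.56, edgeR adjusted p = 0.0354). That call was lost without S41 (0.0776), S42 (0.0570), S43 (0.0886), S44 (0.111) or S46 (0.0969). Among the members between Cyp2c29 and Cyp2c37, Cyp2c38 (−0.76 and −0.64, adjusted p = 0.262 and 0.448) and Cyp2c39 (−1.13 and −0.87, adjusted p = 0.224 and 0.461) were not called in either state. Cyp2c67, Cyp2c68 and Cyp2c40 also lie there, each 97.7% or 98.1% identical to its nearest copy over the coding sequence, whose estimates ran from −0.51 to 0.60 fasted and from −0.28 to 0.16 refed with no call. With Cyp2c69 added and the copies summed, their change was −0.35 fasted and −0.28 refed (adjusted p = 0.217 and 0.432).

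**Figure D3:**
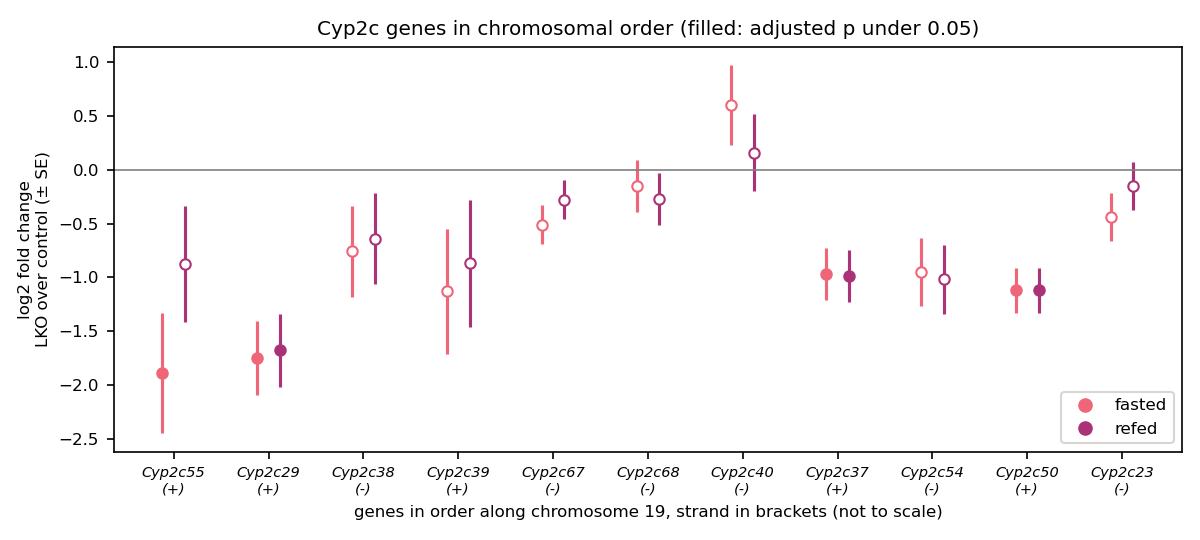
Log2 fold change of LKO over control with its standard error for the 11 tested Cyp2c genes in their order along chromosome 19, fasted and refed, with filled points for adjusted p under 0.05. Cyp2c29 at one side and Cyp2c37 and Cyp2c50 at the other were called in both states, and Cyp2c40 is the 1 gene with estimates above 0.

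The Cyp2d genes, whose human relative CYP2D6 oxidises many basic drugs, form a cluster on chromosome 15. All 8 tested members had fasted estimates below 0 and 3 were called lower, while 0 of 8 were called in the refed state. Over all genes tested, 6.48% were called lower when fasted and 3.63% in either direction when refed. Cyp2d22 read 323, 374, 368 and 384 CPM in fasted controls and 181, 295, 242 and 253 CPM in fasted LKO, with no overlap (−0.58, SE 0.13, edgeR adjusted p = 0.00993). Its refed groups were also separate, at 342, 369.9, 261 and 289.7 CPM in controls and 248, 236, 228 and 215 CPM in LKO, without a call (−0.45, adjusted p = 0.0713).

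Cyp2d40 read 158, 184, 197 and 164 CPM in fasted controls and 91.5, 139, 66.2 and 79.4 CPM in fasted LKO. Its fasted LKO level was 53.6% of control (−0.90, SE 0.21, edgeR adjusted p = 0.0115). The refed values were 182, 118, 184 and 187 CPM in controls and 178, 132, 107 and 112 CPM in LKO, which overlapped because of S49 (−0.34, adjusted p = 0.419). The fasted calls of Cyp2d22 and Cyp2d40 were kept in every alternative run.

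Cyp2d13 stood at 217, 289, 249 and 232 CPM in fasted controls and 174, 191, 220.2 and 161 CPM in fasted LKO. The refed values were 304, 264, 329 and 287 CPM in controls and 232, 219, 215 and 253 CPM in LKO. The fasted groups touched at S40 and S46 and the refed groups were separate, yet the call was fasted (−0.40, SE 0.11, edgeR adjusted p = 0.0254) and not refed (−0.36, adjusted p = 0.0779). The fasted call was lost without S41 (0.0879), S42 (0.0514), S44 (0.0778) or S47 (0.0660), and with only the fasted groups in the fit (0.0729). A long noncoding gene on the opposite strand overlaps Cyp2d13, and as the use of strand in counting is not given in the sources used here, its reads (1565 counts against 69842) cannot be fully told apart.

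The most abundant P450 transcripts did not pass the test for genotype. Cyp2e1 read 11253, 13446, 14174 and 12053 CPM in fasted controls and 8922, 15160.1, 11024 and 10963 CPM in fasted LKO. In the refed state it read 10397, 10251, 10411 and 12769 CPM in controls and 9374, 11573, 11436 and 9426 CPM in LKO. The groups overlapped in each state, and the log2 fold changes were −0.14 and −0.07 (SE 0.15 each, edgeR adjusted p = 0.577 and 0.855).

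Cyp2d9, a male-biased testosterone hydroxylase, read 1818, 2281, 2468 and 2290.2 CPM in fasted controls and 1749, 2244, 2228 and 1238 CPM in fasted LKO. Its refed values were 2003, 1687, 1904 and 2025 CPM in controls and 1669, 2234, 1643 and 1409 CPM in LKO. S44 and S47 lay below all fasted controls and S52, S54 and S55 below all refed controls, while the other LKO libraries lay within or above the controls (−0.25 and −0.13, SE 0.17 each, edgeR adjusted p = 0.394 and 0.747).

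Cyp2d26 read 1397, 1529, 1564 and 1542 CPM in fasted controls and 1035, 1497, 1154 and 1431 CPM in fasted LKO. It read 1658, 1564, 1584 and 1674 CPM in refed controls and 1877, 1732, 1536 and 1493 CPM in refed LKO. Genotype was not called in either state (−0.24 and 0.03, SE 0.11 each, edgeR adjusted p = 0.188 and 0.913), with S44 and S46 the lowest libraries. Cyp2f2, the naphthalene-oxidising enzyme of periportal hepatocytes, was likewise not called (−0.36 and −0.10, SE 0.18 each, adjusted p = 0.216 and 0.818).

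In the Cyp2a and Cyp3a subfamilies the further calls were smaller. Cyp2a12, a steroid hydroxylase, read 637, 575, 657 and 619 CPM in fasted controls and 431, 438, 499.6 and 522 CPM in fasted LKO, which did not overlap (−0.40, SE 0.10, edgeR adjusted p = 0.0206). That call was lost without S40 (0.0507) or S44 (0.0653), and held when Cyp2a12 was summed with its 97.0% identical copy Cyp2a22 (−0.44, adjusted p = 0.0162). Refed Cyp2a12 read 713, 574, 702 and 771 CPM in controls and 619.7, 596, 491 and 562 CPM in LKO, which overlapped through S49 (−0.28, adjusted p = 0.149).

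Cyp3a13, a member of the steroid- and drug-oxidising CYP3A group that lies apart from the others on chromosome 5, read 166, 139, 215 and 186 CPM in fasted controls and 89.1, 129, 101 and 109 CPM in fasted LKO. Refed controls held 149.7, 154, 138 and 153 CPM of it and refed LKO 140, 119, 95.9 and 114 CPM. Fasted LKO reached 60.5% of control with no overlap (−0.72, SE 0.14, edgeR adjusted p = 0.00329), and the refed groups touched at S50 and S52 (−0.34, SE 0.14, adjusted p = 0.185). Cyp3a11, the main mouse counterpart of human CYP3A4, varied more between libraries, from 475 to 1199 CPM in fasted controls and from 256 to 839.8 CPM in fasted LKO. Its estimate was −0.71 in both states and was not called (SE 0.37, adjusted p = 0.234 and 0.333).

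Cyp2j5, an epoxygenase of arachidonic acid in liver and kidney, was called in the refed state with the smallest change. It read 463, 477, 464 and 435 CPM in refed controls and 404, 386, 344 and 361 CPM in refed LKO, without overlap (−0.30, SE 0.08, edgeR adjusted p = 0.0491). The fasted values of 359, 431, 439 and 390.2 CPM in controls and 372, 367, 370.1 and 349.8 CPM in LKO overlapped (−0.15, adjusted p = 0.245). The refed call was lost without any 1 library other than S52 (adjusted p from 0.0522 without S51 to 0.133 without S54), with no filter on low counts (0.121) and with only the refed groups in the fit (0.0770).

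Cyp2u1, a fatty acid hydroxylase (ENSMUSG00000027983, chr3:131082090-131096876, minus strand), was the 1 member called in the test of the difference between states, in which 0.538% of all genes were called, 0.311% with a higher and 0.228% with a lower refed effect. It read 56.3, 59.7, 46.1 and 68.1 CPM in fasted controls and 28.5, 46.3, 23.9 and 35.9 CPM in fasted LKO. After refeeding it read 40.8, 29.6, 53.7 and 52.7 CPM in controls and 77.7, 64.6, 58.1 and 74.6 CPM in LKO. Fasted LKO libraries were low, with S45 just above S42, whereas all refed LKO libraries were above all refed controls. The fasted change was −0.77 (SE 0.20, edgeR adjusted p = 0.0198), the refed estimate was 0.64 (SE 0.20, adjusted p = 0.0895), and their difference was 1.41 (SE 0.28, adjusted p = 0.0426). The interaction call was lost in 11 of the 16 fits without 1 library, with adjusted p from 0.0507 (without S54) to 0.0847 (without S55). It was kept without S42, S45, S47, S49 or S51. The fasted call was lost without S43 (0.0613), S44 (0.0670) or S46 (0.0637). For the members called in both states the difference between states was not called, at 1.0 for Cyp2a5, 0.42 for Cyp1a2, 0.07 for Cyp2c29, −0.02 for Cyp2c37 and 0.00 for Cyp2c50 (adjusted p = 0.193, 0.290, 0.959, 0.981 and 0.999).

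Members of the Cyp2b subfamily, which holds the CAR target Cyp2b10 and the female-biased Cyp2b9 and Cyp2b13, varied widely within groups. Cyp2b13 read 2.68, 3.27, 4.68 and 18.5 CPM in fasted controls and 0, 0.283, 0 and 4.35 CPM in fasted LKO, and 24.4, 3.82, 17.7 and 15.7 CPM in refed controls against 2.05, 0, 0.185 and 0.476 CPM in refed LKO. The refed groups did not overlap and the change was called (−4.42, SE 1.07, edgeR adjusted p = 0.0318), while the fasted groups overlapped through S47 (−2.72, SE 1.03, adjusted p = 0.0959). The refed call was lost without S48 (0.0882), S50 (0.0642), S53 (0.0875), S54 (0.0856) or S55 (0.0975), with limma-voom (0.0883) and with DESeq2 (0.0527).

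Cyp2b9, 92.7% identical to Cyp2b13 over the coding sequence, read 2.6, 73.4, 1.35 and 315 CPM in S44, S45, S46 and S47, the fasted LKO libraries, against 41.7 to 255 CPM in fasted controls. It was not called in either state (−0.40 and −1.42, SE 1.05 and 1.07, adjusted p = 0.853 and 0.520). The same fasted LKO libraries S44 and S46 were also the low ones for Cyp2c38, at 15.7 and 17.3 CPM against 54.4 and 93.1 CPM in S45 and S47. They were low for Cyp2a22 too, at 4.49 and 4.99 CPM against 15.1 and 31.0 CPM. Cyp2a4 reached 74.2 CPM in S47 and stayed between 1.71 and 21.2 CPM in the other 15 libraries. Cyp2b9, Cyp2c38, Cyp2a22 and Cyp2a4 were picked for this description after their values were seen.

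**Figure D4:**
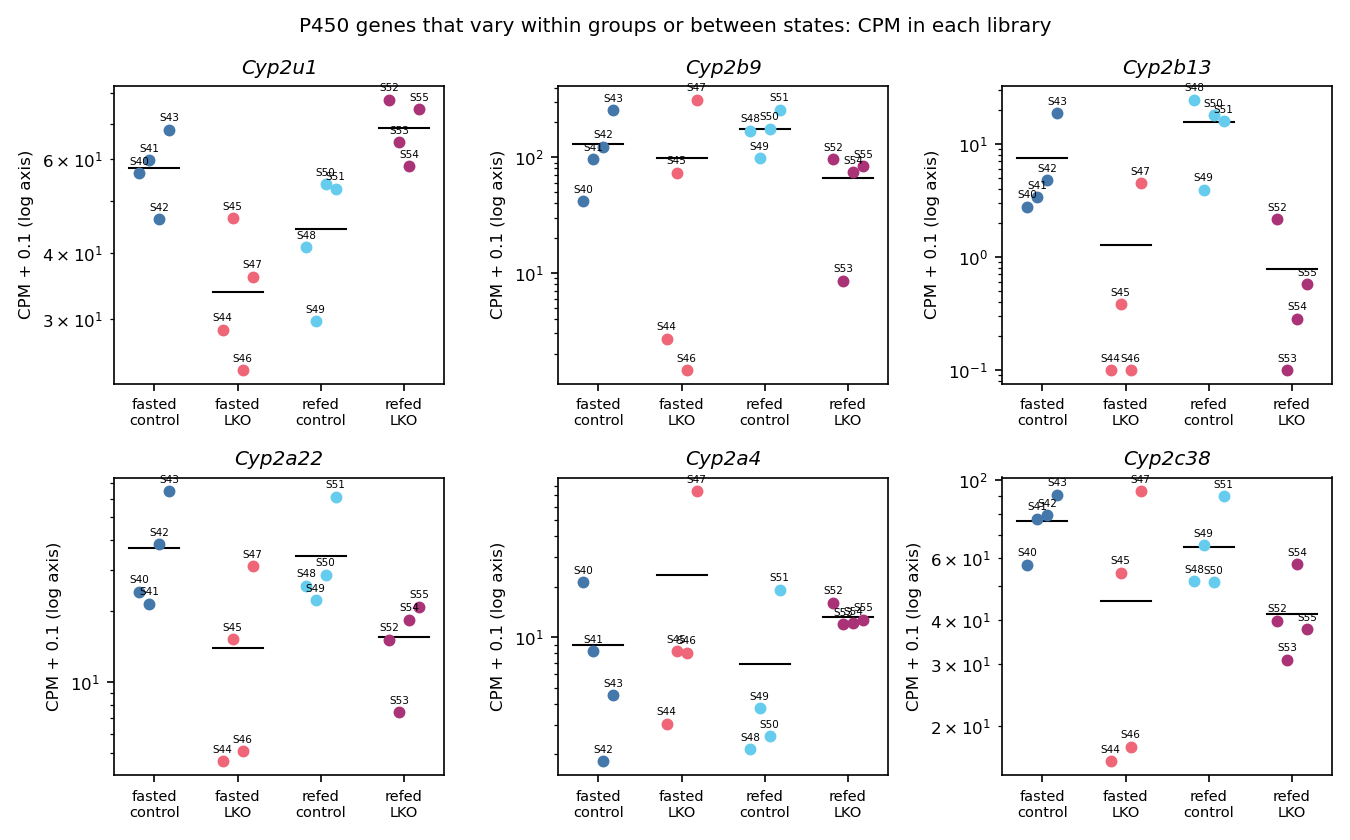
CPM plus 0.1 on a log axis in each library (points labelled with the library name; black lines mark group means) for Cyp2u1 and for 5 P450 genes that vary within groups. The Cyp2u1 LKO points lie mostly below the controls when fasted and above them when refed, and S44 and S46 are the lowest fasted LKO points for Cyp2b9, Cyp2a22 and Cyp2c38.

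At the lowest levels, the olfactory-type gene Cyp2g1 had 70 counts over the 4 fasted controls (24, 13, 23 and 10) and 2 over the 4 fasted LKO libraries (0, 1, 1 and 0). Per total count the LKO level was 2.9% of control, with a 95% exact interval of 0.344% to 10.9% that covers counting error only. The call held in every alternative that tested the gene (edgeR adjusted p = 4.59e-04), and the refed counts of 37 against 9 gave adjusted p = 0.0613. The remaining low members below 1 CPM on average were not called in any comparison.

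Between the groups as compared above, fasted LKO did not overlap fasted control and was lower for 12 members, against 8.57% of all genes, and higher for 0, against 8.3%. In the refed state 13 members were lower without overlap, against 5.03% of all genes, and 1 (Cyp2u1) was higher, against 6.7%.

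With refeeding, the median absolute log2 fold change of the members was 0.25 in controls and 0.43 in LKO, against 0.24 and 0.23 over all genes. Taken with their sign, the medians were −0.06 and 0.16, against 0.01 and −0.02 over all genes. Absolute values also rise with the noise of members at low counts. In controls 1 of 42 was called, higher, which is 2.38% of them, while 15.4% of all genes were called, 7.79% higher and 7.65% lower. That member was Cyp1a2 (0.45, SE 0.14, edgeR adjusted p = 0.0350), a call lost without S40 (0.0694), S42 (0.0861), S43 (0.104), S48 (0.120) or S50 (0.0871). In LKO 5 members were called, all higher, which is 11.9% of them, while 18.1% of all genes were called, 9.28% higher and 8.78% lower. Cyp2a5 rose by 1.12 (SE 0.27, edgeR adjusted p = 0.00868), Cyp2u1 by 1.03 (SE 0.20, adjusted p = 0.00233) and Cyp1a2 by 0.87 (SE 0.14, adjusted p = 5.09e-04). Cyp2r1, a vitamin D hydroxylase, rose by 0.59 (SE 0.16, edgeR adjusted p = 0.0193), from 6.19 ± 1.62 to 9.28 ± 0.755 CPM, a call lost without S52 (0.0508) and with only the LKO groups in the fit (0.0565). Cyp2d26 rose by 0.38 (SE 0.11, edgeR adjusted p = 0.0287), a call lost without S44 (0.0833), S46 (0.0806), S52 (0.101) or S53 (0.0667) and with only the LKO groups in the fit (0.0985). Without S52, 6 members were called with refeeding in LKO, 4 higher and 2 lower, and 3 of these calls were among those with all libraries. Each refeeding comparison shares its groups with a genotype comparison, so they are not separate evidence. No member was separate between feeding states in controls, against 10.4% of all genes higher and 10.1% lower, and 3 were separate and higher in LKO (Cyp1a2, Cyp2r1 and Cyp2u1), against 10.6%, and 0 lower, against 9.95%.

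Genes that drive or serve P450 enzymes were counted from lists that were chosen with earlier results of these data known. Of 21 nuclear receptors and transcription factors of P450 genes, 1 was called higher and 1 lower in fasted LKO, and 0 in refed LKO, with list medians of −0.24 and −0.15. Nfe2l2, the oxidative stress factor, was the one higher (0.53, edgeR adjusted p = 0.0359) and Cebpb the one lower (−0.76, adjusted p = 0.0481). CAR (Nr1i3) was not called (−0.33 and −0.60, adjusted p = 0.236 and 0.0613), nor PXR (Nr1i2; −0.12 and −0.27, adjusted p = 0.701 and 0.413), nor AHR (Ahr; −0.21 and −0.33, adjusted p = 0.603 and 0.475), whose target Cyp1a2 was lower. The refed groups of Nr1i3 were nonetheless separate, at 92.6 to 112 CPM in controls and 63.3 to 78.4 CPM in LKO. In the same list, refed Hlf was also lower in LKO without overlap (71.1 to 74.6 and 60.4 to 67.7 CPM). Refed Nfe2l2 was higher in LKO without overlap (45.5 to 62.8 and 67.1 to 86.8 CPM). Of the AHR targets outside the P450 families 3 of 5 were tested and 0 were called.

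Of 6 electron donors 1 was called lower in fasted LKO and 0 in refed LKO. This was Cyb5r3, the cytochrome b5 reductase (−0.76, edgeR adjusted p = 0.00322), while POR itself was not called (Por; −0.29 and −0.30, adjusted p = 0.504 and 0.571). Of 12 genes of heme synthesis and breakdown, 3 were called lower in fasted LKO (Alad, Urod and Fech, by −0.36, −0.29 and −0.27) and 0 in refed LKO. The rate-limiting Alas1 was not among them (−0.35 and −0.19, edgeR adjusted p = 0.648 and 0.858).

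For growth hormone signalling 9 of 10 genes were tested, and 1 was called lower in fasted LKO (the receptor Ghr, −0.59, edgeR adjusted p = 0.00272) and 0 in refed LKO. Refed Ghr was still lower in LKO without overlap (475 to 532 CPM in controls and 366 to 446 CPM in LKO). So was refed Stat5b (44.8 to 49.3 and 31.7 to 40.4 CPM), while the other tested genes of this list overlapped when refed. Of 14 female-biased liver genes 5 were tested, with 0 called when fasted and 1 lower when refed, which was Cyp2b13. The medians of these 5 genes were 0.06 fasted and −1.37 refed. Of 9 male-biased liver genes 0 were called in either state, and their medians were 0.28 and 0.37.

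As Cyp1a2, Cyp2e1 and several Cyp2c genes are richest around the central vein, zonation genes outside the P450 families were counted as well. Of 10 pericentral genes 4 were called lower in fasted LKO (Slc1a2, Gulo, Glul and Rnase4, by −1.05, −0.88, −0.84 and −0.83) and 1 higher (Axin2, 0.83). In refed LKO 1 was called lower (Slc1a2, −0.82). The list medians were −0.74 and −0.34. Of 10 periportal genes 1 was called lower in fasted LKO (Gls2, −0.85) and 1 higher in both states (Hsd17b13, 0.58 and 0.59), with medians of −0.69 and −0.47. Whether the zonation genes have a part in the P450 values was not tested.

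In refed against fasted controls, 2 genes of the factor list were called higher and 3 lower, and in LKO 2 higher and 0 lower. Arnt, the partner of AHR, was among those higher in both (0.75 and 0.41, edgeR adjusted p = 2.43e-04 and 0.00458). The changes of Cyp1a2 were 0.45 in controls and 0.87 in LKO, and a link between the 2 genes was not tested. Alad rose by 0.62 with refeeding in LKO (edgeR adjusted p = 8.09e-04). The other lists had 0 to 2 calls in either direction in each refeeding comparison.

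Markers of other liver and blood cells were counted for the fasted genotype comparison. Of 6 resident macrophage, 6 recruited macrophage, 5 lymphocyte, 5 endothelial and 4 cholangiocyte markers tested, 0 were called, and 2 of 8 hepatocyte markers were called lower (Ttr and Serpina1c, by −0.59 and −0.62). Of 7 stellate or fibroblast markers 1 was called higher (Dcn, 0.36), of 3 red blood cell markers 1 lower (Alas2, −1.04), and of the adipocyte and neutrophil markers 1 each was tested, of which the adipocyte gene Cfd was called lower (−3.45). In the refed state 1 recruited macrophage marker (Ly6c2, 1.63) and 1 endothelial marker (Clec4g, 0.44) were called higher and 0 of 8 hepatocyte markers were called. The summed levels in fasted control and fasted LKO libraries ranged over 199.6 to 389 and 258 to 373 CPM for resident macrophages. They ranged over 161 to 321 and 187 to 298 CPM for stellate or fibroblast markers, 128 to 153 and 127 to 151 CPM for endothelium and 4.2 to 8.59 and 6.05 to 46 CPM for cholangiocytes. For adipocytes the ranges were 9.81 to 58.1 and 0.448 to 9.63 CPM, and for red blood cells 356 to 1176 and 274 to 462 CPM. Recruited macrophages (17.0 to 31.3 and 14.7 to 36.0), lymphocytes (3.35 to 7.05 and 4.65 to 7.18) and neutrophils (0.632 to 1.85 and 1.05 to 2.05 CPM) overlapped between the fasted genotypes, while the adipocyte ranges did not. For adipocytes the refed ranges were 2.5 to 33.1 CPM in controls and 0.563 to 3.46 CPM in LKO. The refed lymphocyte sums ran from 2.72 to 3.64 CPM in controls and from 4.2 to 7.11 CPM in LKO and did not overlap, with 0 of 5 of these markers called. No marker was at 0 in all 16 libraries, and the part of these cells in the P450 values was not tested.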

How the data were processed

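RNA sequencing of mouse liver in 16 libraries gave 4 deposited tables, each comparing 2 of the 4 groups. Raw read counts per gene were deposited by the authors, and the columns of a library held the same counts in both of its tables. HISAT2 2.0.5 and mm39 are named in the submitters' processing notes, without a role. The counting tool and its use of strand are not given in the sources used here. The deposited log2 fold changes and adjusted p-values of the authors, whose test is not stated, were used for a count of listed genes only. Gene lengths are also as deposited. Library columns S40 to S55 were assigned to groups by the group names in the table headings, and 64 columns of normalized values were not used. The tables were joined on gene ID, and for 3148 genes absent from both tables of a library, 3 of them members, the count there was taken as 0.

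All 16 libraries were fitted with edgeR 4.0.16 in R 4.3.3 as 4 groups (filterByExpr, TMM factors of 0.941 to 1.07, quasi-likelihood test, SE as the log2 fold change over the square root of F, Benjamini-Hochberg adjustment over 14488 genes, threshold 0.05). CPM are counts per 1000000 of the TMM-scaled total. Total counts of 14721601 to 24618230 per library make counting error small for all but the rarest members. Nothing in the labels says that the samples of a group came from separate animals, so p-values measure only the spread between these samples, which may be technical. Coding identity is that of the longest open reading frames of GENCODE M21 transcripts (Biopython 1.88), available for 52 members. The fit was tested on simulated data. DESeq2 1.42.0, limma 3.58.1, other scaling and filters, copies summed at 95% identity, and leaving out each library were alternatives.

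Values in every library are given for members called by genotype or interaction with a mean of at least 5 CPM and for the 3 highest members. Members and gene lists were chosen with earlier results of these data known. Near-identical copies are uncertain because reads may be split among them. Log2 fold changes relate LKO to control or refed to fasted.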

Additional observations from a re-analysis of the deposited data

Results flagged for a closer look

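In groups of 4, 1 library was set apart from the other 3 (by Dixon's test of the gap over the range) in 4 of the 72 groups examined, close to the 1 in 20 that chance gives. Cyp2b13 stood at 18.5 CPM in the fasted control library S43, with the others at 2.68 to 4.68, and at 4.35 CPM in the fasted LKO library S47, with the others at 0 to 0.283. Cyp2d40 was 118 CPM in the refed control library S49 and 182 to 187 CPM in the others. Cyp2e1 was 12769 CPM in the refed control library S51 and 10251 to 10411 CPM in the others.

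With all libraries in the fit, the LKO effect on Cyp2u1 differed between feeding states, the refed log2 fold change exceeding the fasted one by 1.41 (edgeR interaction test, adjusted p = 0.0426). That call was lost in 11 of the 16 fits without 1 library.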

How the results depend on the processing

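Over 27 calls of single members, 405 alternatives gave 334 with the call kept, 71 with the same direction but no call, and 0 reversed, and 13 calls were kept throughout. Leaving out 1 library moved the number of members called in fasted LKO from 13 to between 8 and 17, in refed LKO from 7 to between 2 and 9, with refeeding in controls from 1 to between 0 and 1, with refeeding in LKO from 5 to between 4 and 7, and for the interaction from 1 to between 0 and 1. With only the groups compared in the fit, 4 members were called in refed LKO and 3 with refeeding in LKO, where DESeq2 called 8. DESeq2 called 16 members in fasted LKO, 15 lower and 1 higher, and 10 in refed LKO, 9 lower and 1 higher. Over all genes, DESeq2 called 901 in refed LKO against 526 and 469 interactions against 78, and a filter at a mean of 5 CPM gave 197 interactions. Without S44 the fasted total over all genes was 1048 against 1772, and without S48 the refed total was 197 against 526. Summing near-identical copies, an alternative chosen after seeing the data, moved the number of members called in each comparison by at most 1 feature. The planned version of it with RefSeq proteins was not run, as no protein table was used here. No paired analysis was possible because the library columns carry no replicate number. The cause of these changes was not tested. Depth limits the members below 1 CPM.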

Other observations

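Of the 53 members, 11 did not pass the filter on low counts, and their totals over the 16 libraries ran from 2 counts for Cyp3a41a to 94 for Cyp2t4, which overlaps the far more abundant Egln2 on the opposite strand. Cyp2c65 had 26 counts, all of them in the fasted LKO library S44 and 0 in the other 15. The same library held 120 of the 281 counts of Cyp2s1, at 5.99 CPM against 0.131 to 1.67 CPM in the others, and Cyp2s1 was not called (2.16, SE 0.75, edgeR adjusted p = 0.0700). The summed cholangiocyte markers stood at 46 CPM in S44 and at 4.2 to 10.9 CPM in the other libraries. These values of S44 were picked after they were seen.

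The authors' deposited table of fasted LKO against control lists 16 members at adjusted p under 0.05, 15 of them lower and 1 (Cyp2s1) higher, and all 13 members called here are among them. In the refed comparison the authors' deposited table lists 10 members, 9 lower and 1 (Cyp2u1) higher, which include 6 of the 7 called here. For refeeding the authors' deposited tables list 2 members in controls and 6 in LKO, including the 1 and the 5 called here.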
